A study of Rattus norvegicus with 6 samples.

Results

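The genes described here are those of the Sm core, the ring of proteins on the U1, U2, U4 and U5 small nuclear ribonucleoproteins (snRNPs) of the spliceosome. They were taken by gene symbol from the table of 32900 features, which holds all 8 of them: Snrpn, which encodes SmN, Snrpb, which encodes its paralogue SmB, and Snrpd1, Snrpd2, Snrpd3, Snrpe, Snrpf and Snrpg. The normalized count of Snrpn fell from 3660.0 ± 444 (SD, n = 3) in control lines to 1.89 ± 1.82 (SD, n = 3) in those with PWS deletions, and no other Sm core gene passed the test. Snrpb was at 4570.1 ± 219 (SD, n = 3) in control lines and at 4321 ± 185 (SD, n = 3) in PWS lines. The question this comparison answers is whether loss of the SmN transcript was met by more transcript of its paralogue SmB.

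An Sm ring is built on a uridine-rich site of each of these snRNAs in the cytoplasm, with the help of the SMN complex, before the particle returns to the nucleus to take part in pre-mRNA splicing. A ring holds a single B-type protein, either SmB (or its splice form SmB′) or SmN. SmB is made in most cells, whereas SmN is abundant in brain and in some endocrine cells. Snrpn lies in the imprinted domain that is lost in Prader-Willi syndrome (PWS), is transcribed from the paternal allele, and shares its transcript with Snurf, an upstream reading frame for a small arginine-rich nuclear protein.

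INS-1 is a rat insulinoma line used as a β-cell model. The clone used here carries a human insulin transgene and an mCherry reporter fused to mouse Ins2 C-peptide. All 6 lines lack the PWS domain on the silent maternal allele. The 3 control lines, 5-9, 2 and 16, keep the active paternal allele. The 3 PWS lines, 3, 19-1 and 19-4, lack the domain on this allele too, and thereby have no intact copy of Snrpn. Lines 2, 16, 3 and 19 were isolated from line 5-9, so that line 5-9 is the parent of the others. Line 19 was subcloned to give 19-1 and 19-4, which makes 2 separate clones among the PWS lines, and in line 3 the deletion reached farther on its proximal side. All lines were grown in 7.5 mM glucose without treatment, and 1 library of rRNA-depleted total RNA was sequenced from each. A line and its culture can thereby not be told apart.

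Between 26016478 and 36084261 counted reads per line stood behind the values, with the lowest number in PWS line 19-1. A normalized count is the count of a gene divided by the size factor of its library, with reads that align to several places or features counted at each of them (nonunique all counting). In these units the 3 reads that a count of 0 allows came to 2.73 to 3.59, which covers counting error alone. Transcript lengths of the annotation were not used here, so levels are compared between lines and not between genes. All 8 β-cell markers examined were detected in each line, with Ins1 between 133488 and 282807 normalized counts. Summed, they were lower in every PWS line (251565 to 453395) than in every control line (482038 to 558644), 7 of 8 had a log2 fold change below 0, and none passed limma's test after adjustment, with 3 at an unadjusted p-value under 0.05, all lower, beside 5.35% of all tested genes (Ins1, Ins2 and Iapp, named after their values were seen). The part of this difference in the Sm core values was not tested. Of 9 markers of other cell types, Sst, Prss1 and Ptprc had no read in any line, and the sum of the 9 lay between 5.51 and 28.5 in control lines and between 19.1 and 111 in PWS lines, the highest being line 19-4 with mostly Gcg.

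The 20-base guides that removed the domain with Snrpn are shown first, because they define the lines. The first pair was used on the parental cells, 5′ of Frat3 (sgRNA1) and between Snord115 and Ube3a (sgRNA3), and gave the maternal deletion that all lines share. The second pair lies inside the first, at the same ends of the domain, and gave the paternal deletion of the PWS lines. Each is written 5′ to 3′ without its PAM.
sgRNA1: gtcagtgtgttattgctctg
sgRNA3: tacttatgacaattaacctc
sgRNA70-3: gcttgtatgaatccctctgg
sgRNA79-1: gccaggtacaggtagttcac

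The promoters of the 2 genes for B-type proteins are shown next, since one was lost with the domain and the other was untouched. RefSeq (build GRCr8) gives the window from 250 bases before to 50 bases after the start of Snurf, where the shared Snurf-Snrpn transcript begins, as chr1:120339104-120339403 on the minus strand, and that of Snrpb as chr3:137832430-137832729 on the minus strand. Windows of all 8 members were searched on both strands for the letters CCGGAAG, a core of ETS factor sites, and GCATGCG, a core of NRF1 sites. Capitals mark the matches.
Snurf: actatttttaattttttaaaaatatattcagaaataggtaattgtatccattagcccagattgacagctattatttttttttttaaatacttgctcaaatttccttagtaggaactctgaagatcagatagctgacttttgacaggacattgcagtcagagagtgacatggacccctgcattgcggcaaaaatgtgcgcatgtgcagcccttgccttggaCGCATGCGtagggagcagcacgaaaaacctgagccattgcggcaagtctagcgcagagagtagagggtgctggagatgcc
Snrpb: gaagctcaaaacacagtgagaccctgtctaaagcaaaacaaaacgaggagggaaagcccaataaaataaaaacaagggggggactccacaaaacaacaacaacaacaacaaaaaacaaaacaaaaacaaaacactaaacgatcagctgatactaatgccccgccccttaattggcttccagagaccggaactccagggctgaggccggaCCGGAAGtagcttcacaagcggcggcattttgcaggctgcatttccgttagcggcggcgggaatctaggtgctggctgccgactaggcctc
The window of Snurf held GCATGCG on each strand, with the 2 matches overlapping in a palindrome. Of the 33469 promoter windows of this length, 3.33% held these letters on at least 1 strand. Snrpb held CCGGAAG, as did the windows of Snrpd1, Snrpe and Snrpg, that is 4 of 8 members, beside 8.75% of all windows. No member's own window held GCATGCG, and these matches are descriptions of the letters alone.

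Snrpn (ENSRNOG00000059764) checked the label of every line. Its normalized counts in control lines 5-9, 2 and 16 were 3956, 3149 and 3874, and PWS lines 3, 19-1 and 19-4 had 2.04, 0 and 3.64. Control line 2 was the lowest of the controls, and the groups were far apart. The PWS lines together held 6 Snrpn reads, 2 in line 3 and 4 in line 19-4, and none of these was unique to the gene. Pooled, their level was 1779-fold lower than in control lines, with a 95% counting interval (exact Poisson) of 817 to 4846.5, or 0.0562% of the control level. The log2 fold change was -10.56 (SE 0.48) on the log2(normalized count + 1) scale, and the call passed limma's test with Benjamini-Hochberg adjustment (adjusted p = 2.62e-05). For every value below of a gene outside the deleted domain, lower RNA per cell and fewer cells with the RNA cannot be told apart in such bulk libraries.

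Snurf, the reading frame that precedes SmN on the same RNA, had almost the same reads. It held 4205, 3442 and 3808 reads in control lines 5-9, 2 and 16, where Snrpn held 4167, 3431 and 3772, and the 6 reads in PWS lines were again split as 2, 0 and 4. Only 0.888% of Snrpn reads in control lines were unique to Snrpn, and 1.62% of Snurf reads to Snurf. Upstream of them, 10 alternative first exons of the Snrpn locus (U1 exons) are annotated, of which 8 had a read in control lines, with 133 reads in all. These exons summed to 45.6, 43.1 and 39.0 normalized counts in the control lines and had no read in the PWS lines.

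The processed pseudogene psSnurfSnrpn is a copy of the Snurf-Snrpn RNA elsewhere in the genome, at chr7:66729111-66730429 on the plus strand in the authors' custom annotation, and the study places it in an intron of Mon2. Its normalized counts were 502, 363 and 470.4 in control lines 5-9, 2 and 16, and 27.6, 43.0 and 45.5 in PWS lines 3, 19-1 and 19-4. All PWS lines lay under all control lines, and the pooled level was 11.5-fold lower (95% counting interval 9.55 to 13.9). The log2 fold change was -3.51 (SE 0.22, limma adjusted p = 0.000122). In contrast with Snrpn, 113 reads remained in the PWS lines, and 25 of 27, 33 of 36 and 47 of 50 were unique to the pseudogene. In control lines 66.1% were unique, which came to 358, 260 and 295 reads in lines 5-9, 2 and 16. The study describes a sequence close to that of Snurf-Snrpn and expression in both groups of lines. How many of the control reads came from the Snurf-Snrpn RNA was not tested, so the difference cannot be assigned to the pseudogene itself. Its host gene Mon2, which encodes a protein of endosome-to-Golgi traffic, was at 3094 ± 198 (SD, n = 3) in control and 3173 ± 38.3 (SD, n = 3) in the PWS group, and the log2 fold change was 0.04 (SE 0.07, limma adjusted p = 0.877).

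Snrpb (ENSRNOG00000006961) encodes the B-type protein that remains when SmN is absent. Control lines 5-9, 2 and 16 had 4671, 4720.0 and 4319 normalized counts, and PWS lines 3, 19-1 and 19-4 had 4394, 4111 and 4458. The groups overlapped, with PWS line 19-1 the lowest and control line 2 the highest. The log2 fold change was -0.08 (SE 0.07), with a 95% interval of -0.24 to 0.08, and it did not pass limma's test (adjusted p = 0.697). As a linear change this was -5.44%, with an interval of -15.1% to 5.34%. The spread between control lines, a coefficient of variation of 4.79%, was larger than the 1.45% that counting alone gives, and 99.9% of the Snrpb reads in control lines were unique to it.

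**Figure D1:**
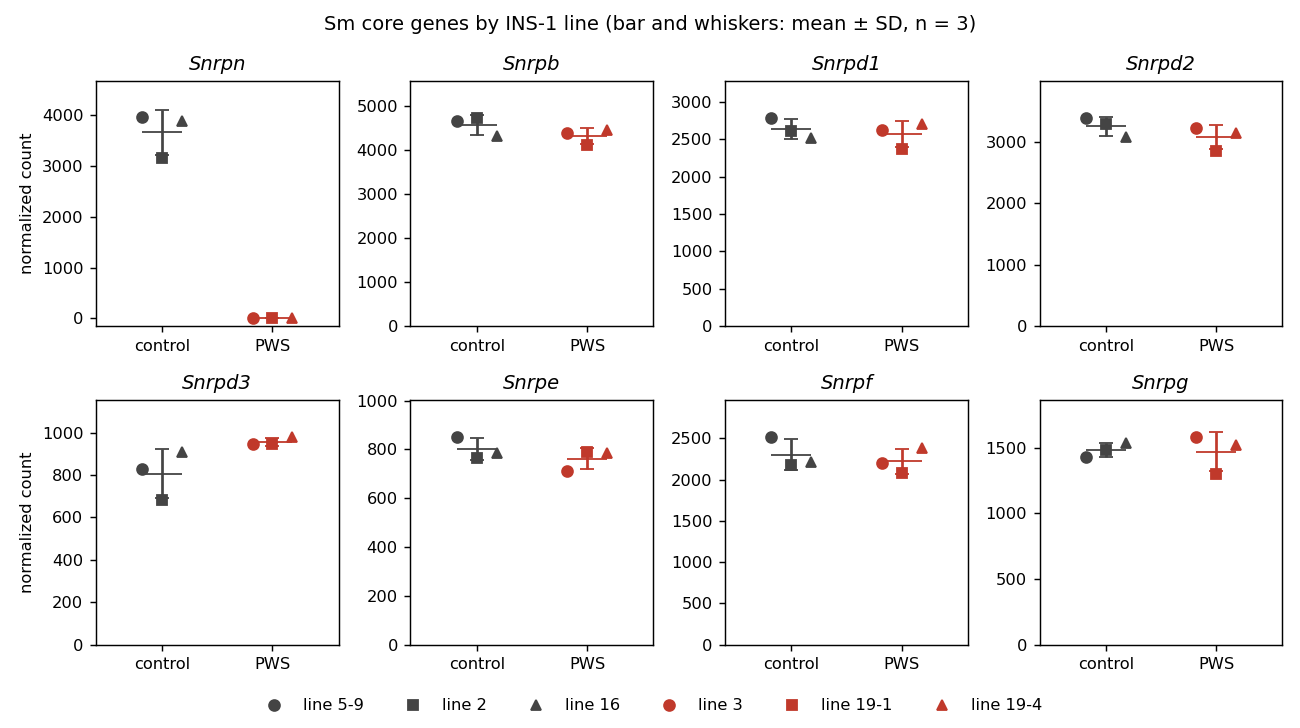
Normalized counts (vertical axis, starting at 0 apart from Snrpn, which starts just below it) of the 8 Sm core genes in control (grey) and PWS (red) lines, 1 symbol per line, with mean ± SD of 3 lines. Snrpn is at 3149 to 3956 in control lines and at 0 to 3.64 in PWS lines, and Snrpd3 is the other panel in which the groups do not overlap.

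The reads of the 2 genes were summed to see whether Snrpb made up for those of Snrpn. This sum is in reads and not per length, so it is no count of transcripts. It came to 8628, 7869 and 8193 in control lines 5-9, 2 and 16, and 4396, 4111 and 4461 in PWS lines 3, 19-1 and 19-4. Snrpn held 45.9%, 40.0% and 47.3% of it in the control lines. The PWS mean of 4323 ± 186 (SD, n = 3) was 52.5% of the control mean of 8230.1 ± 380.5 (SD, n = 3). To hold the sum at the control level, Snrpb would have had to be 1.80-fold higher, a log2 fold change of 0.85, which lies above the upper end of its interval (0.08).

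**Figure D2:**
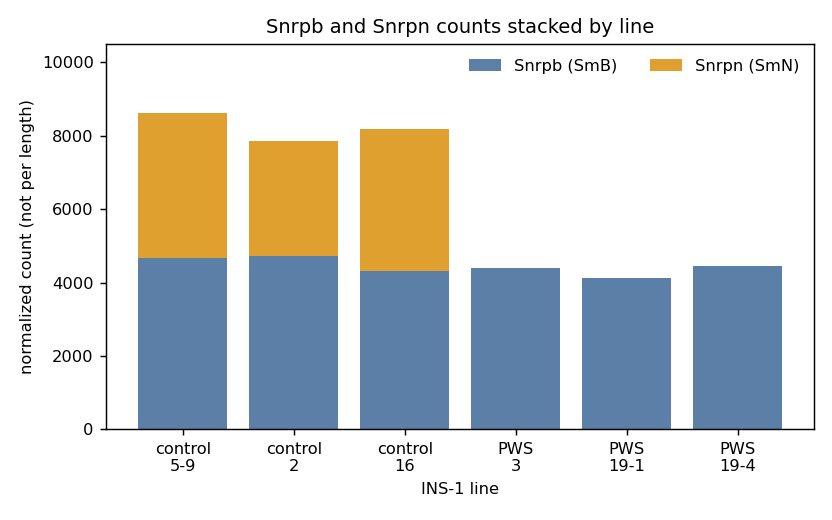
Normalized counts (not per length) of Snrpb (blue) and Snrpn (yellow) stacked for each line. The Snrpb part lies between 4111 and 4720.0 in all 6 lines, while the Snrpn part is seen in control lines and is too small to see in PWS lines.

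The sum depends on how shared reads are counted. RSEM, which divides a read between the features it fits, gave Snrpn 1538, 1340.2 and 1554 in control lines 5-9, 2 and 16, and gave Snurf 1600, 1189 and 1550.3 from the same transcript. With RSEM the share of Snrpn in the sum was 27.4% ± 2.46 (SD, n = 3), and a log2 fold change of 0.46 in Snrpb would have held the sum. The RSEM interval of the Snrpb change was -0.25 to 0.06. With reads unique to a feature alone (nonunique none counting), Snrpn was at 30.4, 36.7 and 29.8 in control lines and had no read in PWS lines, so that its share of the sum, 0.701%, holds almost none of its reads. By this counting the log2 fold change of Snrpb was -0.08 (interval -0.24 to 0.08), which includes the 0.0102 that would hold this smaller sum.

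Among the D-type proteins, SmD1 and SmD2 bind each other in the first assembly intermediate and SmD3 pairs with SmB or SmN. Snrpd1 (ENSRNOG00000013714) was at 2778, 2616 and 2515 in control lines 5-9, 2 and 16 (normalized counts), and 2617, 2374 and 2709 in PWS lines 3, 19-1 and 19-4. The groups overlapped, and the log2 fold change was -0.04 (SE 0.08, interval -0.21 to 0.13, limma adjusted p = 0.885). Snrpd2 (ENSRNOG00000015844) had 3387, 3298 and 3080.2 in control and 3226, 2857 and 3151 in PWS lines, in the same order. Here too the groups overlapped, with a log2 fold change of -0.08 (SE 0.07, interval -0.25 to 0.09, limma adjusted p = 0.720).

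Snrpd3 (ENSRNOG00000050410), the gene for the direct partner of the B-type proteins, was the member other than Snrpn whose groups did not overlap. Control lines 5-9, 2 and 16 had 829, 680.2 and 910.0 normalized counts, and PWS lines 3, 19-1 and 19-4 had 945, 947 and 980.1. The PWS lines lay close together, while control line 2 was well under the other 2 controls. The log2 fold change was 0.26 (SE 0.11, interval 0.0056 to 0.51), and it missed the threshold after adjustment in limma (unadjusted p = 0.0461, adjusted p = 0.433). Without control line 2 it was 0.14 (interval -0.04 to 0.32, unadjusted p = 0.115 in limma). In all, 1 of the 8 members passed the adjusted threshold, where 0.257% of the 15579 tested genes did. An unadjusted p-value under 0.05 was found for 2 members, Snrpn and Snrpd3, beside 11.3% of all tested genes, and the same 2 members had groups that do not overlap, as did 17.4% of all tested genes. Outside the deleted domain this leaves 0 of 7 members past the adjusted threshold. On the unadjusted count and the overlap count it leaves 1 of 7, which is near the background. The unadjusted counts, here and for the marker and snRNP lists, treat lines 19-1 and 19-4 as separate samples. With them averaged into 1 sample, the unadjusted p-value of Snrpd3 in limma was 0.0893 (interval -0.05 to 0.56), and Snrpn alone was left under 0.05. In DESeq2, with all 6 lines kept separate, that of Snrpd3 was 0.0517. Over the 18 alternatives it was under 0.05 in 9, and in 1 of the 6 that leave out a single line.

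Snrpe, Snrpf and Snrpg encode SmE, SmF and SmG, which form a trimer that joins SmD1 and SmD2. Snrpe (ENSRNOG00000031127) was at 852, 765 and 787 in control lines 5-9, 2 and 16 (normalized counts), and 712, 792 and 785 in PWS lines 3, 19-1 and 19-4. Snrpf (ENSRNOG00000005556) had 2518, 2182 and 2212 in control and 2196, 2084 and 2379 in PWS lines, in the same order. Snrpg (ENSRNOG00000016507) had 1431, 1479 and 1537 in control and 1581, 1299.8 and 1521 in PWS lines. Control and PWS lines overlapped for all 3 genes. Their log2 fold changes were -0.07 (interval -0.26 to 0.12) for Snrpe, -0.05 (interval -0.24 to 0.14) for Snrpf and -0.02 (interval -0.22 to 0.18) for Snrpg. None passed limma's test (adjusted p between 0.795 and 0.958).

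**Figure D3:**
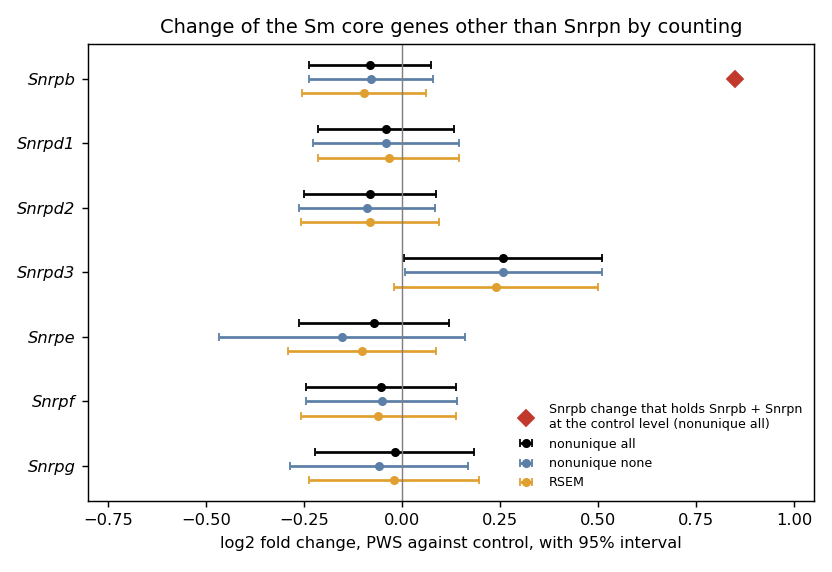
Log2 fold change of PWS against control lines (horizontal axis) with its 95% interval from limma for the 7 Sm core genes other than Snrpn, by nonunique all (black), nonunique none (blue) and RSEM (yellow) counting. The red diamond, at 0.85, marks the change of Snrpb that would hold the sum of Snrpb and Snrpn at the control level. Snrpd3 is the gene whose interval starts above 0, at 0.0056 by nonunique all and 0.0069 by nonunique none counting, while by RSEM it starts at -0.02.

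How much a member shares its reads with other features differed widely. At least 99.7% of the reads of Snrpb, Snrpd3 and Snrpf in control lines were unique to them, 91.8% for Snrpd2 and 65.0% for Snrpd1, but 39.3% for Snrpg and 21.7% for Snrpe. RefSeq lists genes or pseudogenes named as copies for each member, 9 for Snrpg and 5 each for Snrpe and Snrpn. Apart from Snrpn, Snrpe moved most between countings, with 852 normalized counts in line 5-9 by nonunique all, 177 by nonunique none and 2426 by RSEM. The level of Snrpe and Snrpg is therefore uncertain, whereas the log2 fold change was below 0 under each of the 3 countings for both, although that of Snrpg passed 0 when single lines were left out. Their intervals by nonunique none counting, -0.47 to 0.16 for Snrpe and -0.29 to 0.17 for Snrpg, still held 0.

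The 7 members outside the deleted domain were lowest and highest in particular lines. PWS line 19-1 was the lowest of all lines for 5 of them (Snrpb, Snrpd1, Snrpd2, Snrpf and Snrpg), and control line 5-9 was the highest for 4 (Snrpd1, Snrpd2, Snrpe and Snrpf). Set against the control mean, the median of the 7 on the log2 scale was -0.15 in line 19-1, while it was -0.01 in line 3 and 0.04 in line 19-4. The corresponding control medians were 0.06, -0.01 and -0.06 for lines 5-9, 2 and 16. Over all tested genes the median log2 fold change was -0.0028, and that of the 7 members was -0.05, with 6 of 7 below 0. Without line 19-1 the median of the 7 was -0.0084, with 4 of 7 below 0. It was -0.09 without line 19-4, with 6 of 7 below 0, and -0.08 without line 16, with 5 of 7 below 0.

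Markers of proliferating cells were set beside these values. The 12 markers summed to between 106705 and 113917 normalized counts in control lines and between 96293 and 100831 in PWS lines, with line 19-1 the lowest. All 12 had a log2 fold change below 0 in limma, with a median of -0.13 (11 of 12 in edgeR and DESeq2), and none passed in limma, edgeR or DESeq2. In each of these, the same 4 of them had an unadjusted p-value under 0.05, all lower, beside 5.35% of all tested genes that were lower in limma, 5.24% in edgeR and 5.01% in DESeq2. They are named after their values were seen (Top2a, Ccnb1, Ccna2 and Cdk1). In limma this count was 0 without line 5-9, 1 without line 19-1 and 2 without line 19-4. Top2a, which encodes the topoisomerase of dividing cells, was the lowest by log2 fold change at -0.26 (SE 0.08, limma adjusted p = 0.325), and Mcm7, a subunit of the replicative helicase, the highest at -0.0035 (SE 0.11, limma adjusted p = 0.992), with a range of -0.13 to 0.09 when single lines were left out. By nonunique none and RSEM counting Ccnb1 was the lowest, at -0.26 in each. Line 19-1 also had the fewest counted reads, 26016478. The part of proliferation or depth in the Sm core values was not tested.

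**Figure D4:**
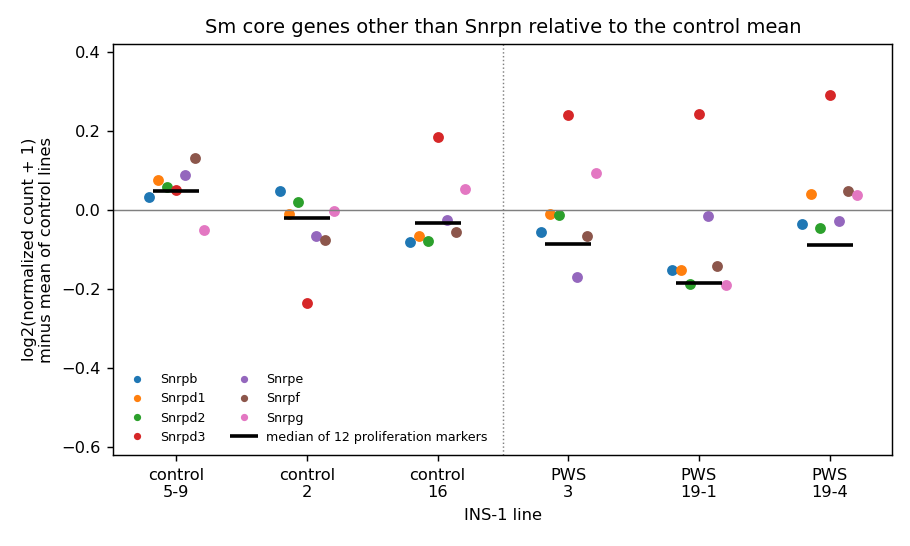
For each line (horizontal axis), log2(normalized count + 1) of the 7 Sm core genes other than Snrpn minus the mean of the control lines, 1 colour per gene, and the median of 12 proliferation markers as a black bar. Line 19-1 has 5 of the 7 genes at their lowest, beside the lowest black bar (-0.18), and Snrpd3 is above the control mean in all 3 PWS lines (0.24 to 0.29).

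Across the 6 lines, the 7 members did not all rise and fall together. The closest pair was Snrpb and Snrpd2, with a Pearson correlation of 0.94 between log2 values, followed by Snrpd1 with Snrpd2 and with Snrpf (each 0.89). Snrpd3 had a correlation of -0.73 with Snrpb and -0.54 with Snrpd2, and of -0.22 to 0.03 with the rest of the 7. Of its 6 pairs 5 were negative. Among the 15 pairs without Snrpd3, 14 were positive, the exception being Snrpe with Snrpg (-0.51). These correlations describe 6 lines that share a parent, 2 of them subclones, and each point shares its library and depth with the other genes. In this way 15578 genes were compared. Among those with a gene symbol, outside the domain and not members, 3 were named as most like Snrpb (each 0.99). They were Ywhaq, a 14-3-3 protein gene, Lsm5, a subunit of the LSm ring, and Psmb7, a proteasome subunit gene. Of all genes with a symbol, those most like Snrpn were Snurf (1.00), a SNORD116 copy (ENSRNOG00000052187, 0.99) and Snord107 (0.99). These lie in the deleted domain themselves.

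Other genes of snRNP formation were read from 4 lists, of whose 61 genes 60 are in the table, and none of the 60 passed limma, edgeR or DESeq2. In limma, 0 were higher and 4 lower at an unadjusted p-value under 0.05, where 6.0% of all tested genes were higher and 5.35% lower. These 4, named after their values were seen, were Gemin7, Lsm3, Phf5a and Prpf31. In edgeR Snrnp40 joined them, and DESeq2 gave Lsm3, Phf5a, Prpf31 and Snrnp40 lower and Prpf8 higher. In limma the number that were lower was 0 without line 5-9, 1 without line 19-1 and 2 without line 2, where 1 was higher. Groups did not overlap for 11 of the 60, 2 higher (Sf3a2 and Prpf8) and 9 lower, where the groups lay apart for 8.43% of all tested genes as higher and 9.01% as lower. The median log2 fold change of the 60 was -0.04, with 39 below 0, and without line 19-1 it was -0.0048, with 31 below 0.

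By role, the 20 genes of Sm ring assembly and snRNP import, the SMN complex among them, had a median log2 fold change of -0.01. Gemin5, the snRNA-binding protein of the SMN complex, was highest, with 1879 ± 109 (SD, n = 3) normalized counts in control and 2096 ± 145 (SD, n = 3) in PWS lines and a log2 fold change of 0.16 (SE 0.08, limma adjusted p = 0.498). Gemin7, another subunit of that complex, was lowest, with 210.5 ± 4.39 (SD, n = 3) in control and 173 ± 10.7 (SD, n = 3) in PWS lines. Its log2 fold change was -0.28 (SE 0.11, limma adjusted p = 0.418), and unique reads made up 44.0% of its total. By nonunique none counting Gemin6 was the lowest instead, at -0.19. The highest was Sart3 without line 19-1 (0.19), and Coil without line 16 (0.16) or line 19-4 (0.13). The groups overlapped for Gemin5 and did not for Gemin7.

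The LSm ring resembles the Sm ring and sits on U6 snRNA or, with other subunits, on mRNAs bound for decay. Its 10 genes had a median log2 fold change of -0.09, and 9 of 10 were below 0. Lsm3 was lowest, with normalized counts of 1112, 1068 and 1014 in control lines 5-9, 2 and 16 and 969, 844 and 937 in PWS lines 3, 19-1 and 19-4. Every PWS line lay under every control line, at a log2 fold change of -0.22 (SE 0.08, limma adjusted p = 0.393). Lsm11, which replaces an SmD protein in the ring of U7, was highest at 0.03 (SE 0.11, limma adjusted p = 0.944), but ran from -0.02 to 0.12 with single lines left out, and by RSEM Lsm6, another subunit, was highest at 0.17.

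Among the 15 proteins particular to U1 and U2 the median log2 fold change was -0.05, and among the 15 of U4/U6 and U5 it was -0.0051. Sf3a2 and Sf3a3, which belong to the same U2 complex, were the highest and the lowest of the first list. Sf3a2 was at 221 ± 19.9 (SD, n = 3) in control and 265 ± 34.5 (SD, n = 3) in the PWS group, and the log2 fold change was 0.26 (SE 0.13, limma adjusted p = 0.511) and 0.16 without line 19-1, and Sf3a3 was at -0.18 (SE 0.11, limma adjusted p = 0.583). In the second list Prpf8, the U5 protein at the catalytic centre of the spliceosome, was highest at 0.15 (SE 0.07, limma adjusted p = 0.483), and Snrnp40, a U5 protein with WD repeats, lowest at -0.30 (SE 0.13, limma adjusted p = 0.444). By edgeR, DESeq2 and RSEM the lowest of this list was Ppih, at -0.31, -0.31 and -0.40. For Sf3a3 and Snrnp40 control line 2 stood above the other lines, with 3589 and 1972 normalized counts, and without it their log2 fold changes were -0.04 and -0.16.

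**Figure D5:**
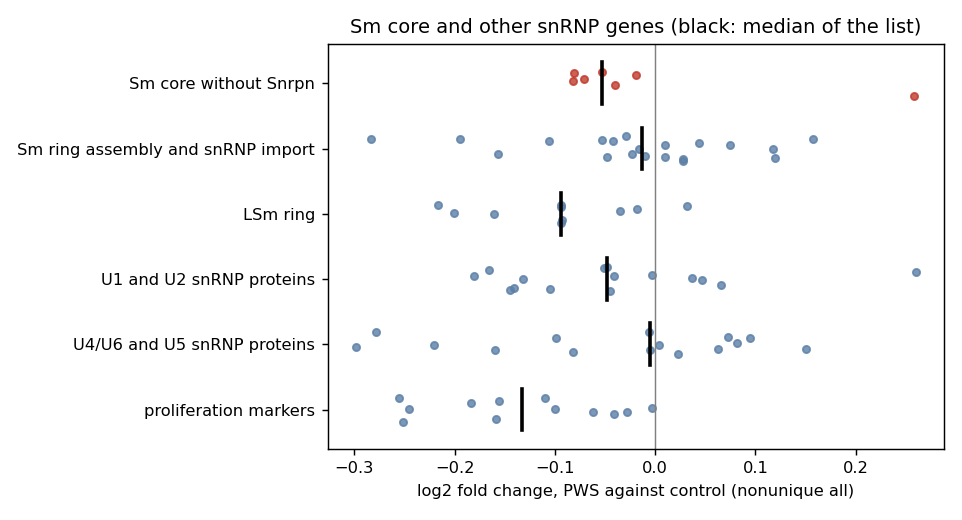
Log2 fold change of PWS against control lines (horizontal axis) for each gene of the Sm core without Snrpn (red), 4 other snRNP lists and the proliferation markers (blue), with the median of each list as a black bar. Medians lie between -0.13 and -0.0051, single genes between -0.30 and 0.26, and no gene shown passed limma's test after adjustment.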

How the data were processed

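RNA-seq of 3 control and 3 PWS INS-1 lines, 1 library per line, was analysed. The authors trimmed reads with cutadapt, aligned them with STAR 2.7.0e to the Ensembl rat genome with transgenes and custom features added, and counted them with HTSeq 0.11.2 (nonunique all and nonunique none) or RSEM 1.3.1. What the authors deposited per line is a signal: each count over the library's size factor from DESeq2. Fold changes and p-values of the authors' own comparison stand beside it and were not used. All values of the nonunique all table (100% of those above 0, tolerance 0.01) were whole multiples of the smallest in their column, so reads were recovered. The nonunique none values were divided and rounded in the same way, and the 100% does not cover them. A read unique to a feature is one counted under nonunique none.

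PWS and control lines were compared on log2(normalized count + 1) by limma 3.58.1 (R 4.3.3, eBayes with trend), over the 15579 genes whose mean in the nonunique all table was at least 5, with Benjamini-Hochberg adjustment over all of them and a threshold of 0.05. With the pseudocount of 1, fold changes of low genes are understated. edgeR 4.0.16 (quasi-likelihood) and DESeq2 1.42.0 on the recovered reads, other pseudocounts, filters, scalings and countings, each line left out, the replicate number as a block and lines 19-1 and 19-4 averaged were alternatives. For a single value, the smallest exact two-sided p-value of 3 against 3 lines is 0.1. The test was also run on simulated counts, and the outcome is not given here. Members, lists and tests were chosen with earlier results of these data known. Named are all members, Snurf, psSnurfSnrpn and Mon2, and the highest and lowest log2 fold change of each list. Also named are genes past the threshold and the 3 genes with a symbol most like Snrpb and Snrpn over the lines. Sequences come from RefSeq (GRCr8), which held a promoter window for all 8 members, and from the study's guide oligonucleotides. The pseudogene's position is that of the authors' annotation on the Ensembl build, which was not mixed with GRCr8.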

Additional observations from a re-analysis of the deposited data

How the results depend on the processing

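Snrpn kept its call and its direction, and Snrpb its direction and its side of the threshold, under all 18 alternatives run. The size of the Snrpn change moved, with a log2 fold change of -5.05 under nonunique none counting and -9.08 with a pseudocount of 5. With single lines left out it lay between -11.03 and -9.92. For Snrpb the log2 fold change lay between -0.12 and -0.05 with single lines left out, and its adjusted p-value between 0.596 and 0.894 over all alternatives. 1 Sm core member was called in every alternative, and 0 of the 60 genes of the 4 snRNP lists, of which 59 could be tested under nonunique none counting (Wdr77 was below the filter). The number of genes called among all tested moved from 40 to 9 with a mean of at least 50 (fewer genes tested), to 16 under nonunique none and 12 under RSEM counting, and to 228 under DESeq2. For the last 3 the cause was not tested. The log2 ratio of the Snrpb plus Snrpn sum moved from -0.93 to -0.0889 under nonunique none counting, which drops the reads shared with Snurf, and to -0.56 with RSEM, which divides them. With single lines left out, the log2 fold change was -0.12 to -0.03 for Snrpd2 and -0.10 to -0.02 for Snrpe. Small changes passed 0 when a line was left out, with a range of -0.0800 to 0.0154 for Snrpd1, -0.104 to 0.0127 for Snrpf and -0.0752 to 0.0661 for Snrpg, and that of Snrpg was 0.0117 with lines 19-1 and 19-4 averaged. The replicate numbers do not pair the lines (correlations of same-numbered deviations 0.00345, 0.0467 and 0.00513), and with the replicate block 36 genes were called and no call of a member changed. With 3 lines a group, the intervals of the members other than Snrpn and Snrpd3 reached from a decrease to an increase, so changes within them were not detectable.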
